A study of Mus musculus with 6 samples.

Results

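Transcripts of 10 genes were followed in mouse bone marrow neutrophils: the NF-E2 family members Nfe2, Nfe2l1 and Nfe2l2, the small MAF genes Mafk, Mafg and Maff, the BACH genes Bach1 and Bach2, Keap1, and the zinc finger gene Plagl2. They are 10 of the 52636 genes listed. They were selected because Nfe2 was lower in the libraries labelled KO than in those labelled WT, so the differences between these groups are given for all 10 as a description, and any call made on them in the fit across all genes is no independent evidence. The series holds 6 libraries of C57BL/6N mice 10 weeks old, 3 of WT and 3 of KO by label. The KO mice were LRP5f/f/Lyz2Cre+, that is, they carried floxed alleles of Lrp5, a Wnt co-receptor gene, and a Cre recombinase placed in Lyz2. For the WT mice the labels name no allele. Lyz2-driven Cre acts in monocytes and macrophages as well as in neutrophils. Levels are given as TPM, transcripts scaled to a fixed total in each library after gene length is taken out, with the SD over the 3 libraries of a group. Log2 fold changes are KO minus WT on the scale of log2(TPM + 1), with their standard error, and understate the change of genes of low level. The labels do not say whether each library came from a separate animal, so the spread between libraries, and each p-value resting on it, may be technical.

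Lrp5 was 1.12, 1.31 and 1.42 TPM in the WT libraries and 1.68, 1.77 and 2.07 TPM in the libraries labelled KO, so the targeted transcript was not lower there and the directions below rest on the labels (log2 fold change 0.31, adjusted p = 0.136, limma). Lyz2, where the Cre is placed, was lower in every library labelled KO, with means of 25963 TPM in WT and 13792 TPM there (log2 fold change −0.91, SE 0.055). Whether either level reflects the alleles was not tested. Total reads ranged from 249841492 to 340580330 per library. The ribosomal share of reads was 1.2% in WT replicate 1, 1.3% in WT replicate 2 and 3.3% in WT replicate 3, beside 2.69% to 2.98% in the KO group. Intronic reads made up 7.78% to 9% in WT and 10.62% to 11.23% in the libraries labelled KO. WT replicate 1 stood apart in its coverage of the 5′ transcript end, with a bias ratio of 0.571 against 0.502 to 0.521 in the other 5 libraries. The defining neutrophil transcripts S100a8 and S100a9 were the leading ones of their list, with S100a9 at 201108 TPM in WT and 227472 TPM in the libraries labelled KO. The mean of S100a8 differed the other way, at 134371 TPM in WT and 120021 TPM in the libraries labelled KO, and its groups overlapped.

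NF-E2 is a DNA-binding dimer of a large subunit, encoded by Nfe2, and a small MAF protein. It is known for its role in megakaryocytes, where it drives platelet formation, and in erythroid cells. The related factors NRF1 (Nfe2l1) and NRF2 (Nfe2l2) pair with the same small MAF proteins and turn on proteasome genes and antioxidant genes, respectively. The BACH proteins pair with small MAFs too and repress many of the same sites, BACH1 being released by heme. KEAP1 holds NRF2 in the cytoplasm and passes it to degradation. The small MAFs have no activation domain of their own, so the partner decides what a dimer does. PLAGL2 is a zinc finger factor of the PLAG family and not a member of this network.

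These dimers recognise DNA around an antioxidant response element, whose core was searched as TGACNNNGC on both strands in the stretch from 250 bases before to 50 bases after each annotated transcription start (RefSeq, GRCm38.p6). Of the 10 genes, 8 had such a stretch, 14 in all, and 4 of the 14 (28.6%) held the core, against 12.4% of all 32851 promoter stretches. Each of these 4 lay before a start of its own gene: Nfe2l2, Mafk, Mafg and Maff. They are shown because these are genes of the network whose promoters hold letters that the network's own dimers can bind. The core is in capitals in each line, read 5′ to 3′ along the gene's strand.
Nfe2l2: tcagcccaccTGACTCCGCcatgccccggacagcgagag
Mafk: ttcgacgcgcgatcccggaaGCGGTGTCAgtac
Mafg: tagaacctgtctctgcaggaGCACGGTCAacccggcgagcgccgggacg
Maff: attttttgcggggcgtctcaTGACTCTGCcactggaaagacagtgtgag
The Nfe2l2 stretch is chr2:75704875-75704913 on the minus strand, with the core 240 bases before the start. The Mafk stretch is chr5:139791503-139791535 on the plus strand, with the core 13 bases before the start and on the opposite strand. The Mafg stretch is chr11:120633741-120633789 on the minus strand, with the core 222 bases before the start and on the opposite strand. The Maff stretch is chr15:79346489-79346537 on the plus strand, with the core 112 bases before the start. A second motif, the AP-1-like core TGANTCA, which can share bases with the first, was in 0 of the 14 stretches and in 7.8% of all. A match is a match of letters, and whether a factor was bound there was not measured.

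Nfe2 (chromosome 15, 103078643 to 103088834, minus strand, in NCBIM37, the mm9 build), was the most abundant of the 10 transcripts in both groups. It stood at 304, 225 and 237 TPM in WT replicates 1 to 3 and at 122, 124 and 143 TPM in KO replicates 1 to 3. Every library labelled KO lay below every WT library, and WT replicate 1 was the highest. The means were 255 ± 42.6 TPM and 129.7 ± 11.2 TPM (SD, n = 3 each), a 1.97-fold higher level in WT. In RNA of a purified population, fewer cells of a type and less RNA per cell cannot be told apart. The log2 fold change was −0.96 (SE 0.12), the 17th lowest among the 9775 genes tested, those whose mean reached 1 TPM. In WT, Nfe2 ranked 345th among those genes by level. Of 974 genes whose mean reached 100 TPM, the log2 fold change of 2 was at or below that of Nfe2, namely Nfe2 itself and C5ar1, the complement C5a receptor gene. By absolute size there were 4, with Rac1 (1.31) and Gm23935 (1.14) added. Both had higher means in the libraries labelled KO and overlapped between the groups. C5ar1, named here after its values were seen, overlapped between the groups, at 46.1, 396 and 448 TPM in WT and 26.8, 27.0 and 377 TPM in the libraries labelled KO.

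Of the read shares above, the intronic share separated the groups, while the ribosomal share of the libraries labelled KO lay within the WT range. Other measures separated the groups too. The share of coding and untranslated-region reads was 83.84% to 87.03% in WT and 81.85% to 82.41% in the libraries labelled KO. Coverage variation was 0.171 to 0.186 and 0.164 to 0.169, and the share of reads on the correct strand 99.43% to 99.51% and 99.37% to 99.41%. Against WT replicate 3 alone, whose ribosomal share was the highest of the 6 libraries, the log2 fold change of Nfe2 was −0.87. With the ribosomal share as a covariate Nfe2 was not called, and its log2 fold change was −0.90. Without WT replicate 1, the library with the highest Nfe2 level and 5′ bias, it was −0.83. These values come from the contrast that Nfe2 was selected on. The part of the ribosomal share, the intronic share and the other separating measures in the difference of Nfe2 was not tested.

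Plagl2 (chromosome 2, 153053495 to 153067162, minus strand) had the lowest log2 fold change of all genes tested. It stood at 12.7, 12.8 and 14.3 TPM in WT and at 1.44, 2.51 and 2.62 TPM in the libraries labelled KO. The groups were far apart and WT was tight around its mean, while KO replicate 1 was the lowest of its group. The means were 13.3 ± 0.886 TPM and 2.19 ± 0.655 TPM (SD, n = 3 each), 6.05-fold higher in WT. The log2 fold change was −2.18 (SE 0.16), with −2.59 at a pseudocount of 0.1 TPM, since the reported scale compresses a level this low.

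Of the remaining 8 genes none separated the groups. The related activator gene Nfe2l2 (chromosome 2, 75513570 to 75542698, minus strand) was 122.5, 111 and 119 TPM in WT and 108, 113 and 119 TPM in the libraries labelled KO. The groups overlapped over most of their range (log2 fold change −0.05, SE 0.071). Nfe2l1 (chromosome 11, 96678728 to 96691282, minus strand) was 17.6, 20.4 and 22.6 TPM in WT and 23.5, 27.4 and 19.2 TPM in the libraries labelled KO. Here KO replicates 1 and 2 were above all WT libraries and KO replicate 3 was among them (log2 fold change 0.19, SE 0.14).

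The small MAF genes, which encode the obligate partners of NF-E2, overlapped between the groups. Mafg (chromosome 11, 120486431 to 120494914, minus strand) was the most abundant of them, at 83.0, 97.8 and 119 TPM in WT and 95.9, 104 and 105 TPM in the libraries labelled KO. All KO libraries lay inside the WT range, and the log2 fold change of 0.04 (SE 0.13) was below 0 in 5 of 19 fits, with −0.03 after median-ratio scaling. Mafk (chromosome 5, 140267467 to 140278607, plus strand) was 63.5, 63.3 and 66.8 TPM in WT and 59.5, 58.7 and 63.5 TPM in the libraries labelled KO. KO replicate 3 reached the lowest WT libraries and the other two lay under them (log2 fold change −0.09, SE 0.067). Maff (chromosome 15, 79177971 to 79189502, plus strand), a small MAF gene that stress and cytokines induce in many cells, was the least abundant at 6.98, 6.52 and 5.93 TPM in WT and 5.88, 5.48 and 5.97 TPM in the libraries labelled KO. The groups met between 5.93 and 5.97 TPM (log2 fold change −0.14, SE 0.084).

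Bach1 (chromosome 16, 87699190 to 87733591, plus strand), the heme-regulated repressor, was 52.3, 41.8 and 42.1 TPM in WT and 48.8, 35.4 and 38.7 TPM in the libraries labelled KO. Replicate 1 was the highest in both groups, and the groups overlapped (log2 fold change −0.15, SE 0.14). Bach2 (chromosome 4, 32325779 to 32673083, plus strand), known for its role in lymphocytes, was 0.227, 0.211 and 0.237 TPM in WT and 0.133, 0.302 and 0.149 TPM in the libraries labelled KO. It was the only one of the 10 genes under the filter of a mean of 1 TPM, so it was left out of the fit. Keap1 (chromosome 9, 21034174 to 21043776, minus strand) was 8.66, 7.80 and 9.50 TPM in WT and 8.66, 7.59 and 7.96 TPM in the libraries labelled KO. Its groups overlapped (log2 fold change −0.09, SE 0.093).

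**Figure D1:**
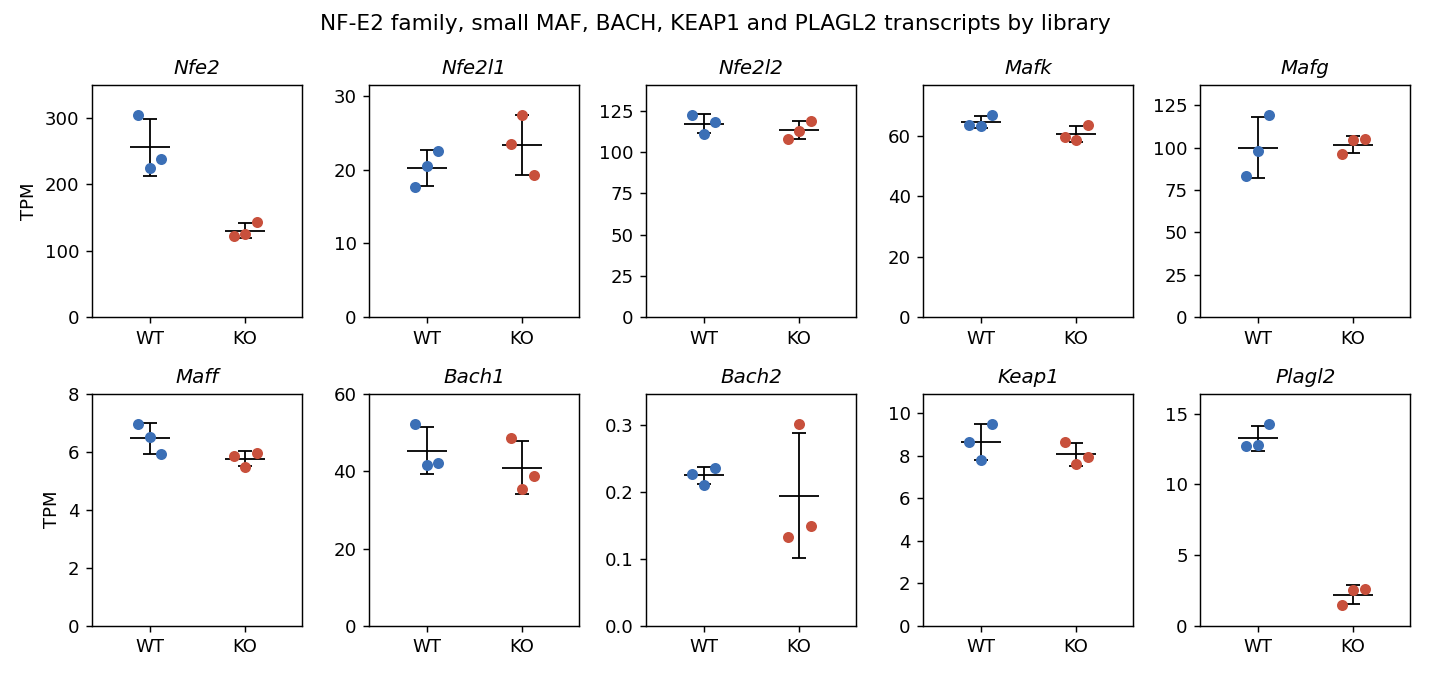
Level of each of the 10 genes in TPM (y axis, starting at 0, with its own scale in each panel) in the 3 WT libraries (blue) and the 3 libraries labelled KO (red). Points are libraries in replicate order from left to right, the long bar is the group mean and the whiskers are ± 1 SD, and the points of the groups are apart for Nfe2 and Plagl2 only.

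In all, 9 of the 10 genes passed the filter, and at an adjusted p under 0.05 (limma, Benjamini-Hochberg over 9775 genes) 2 of the 9, Nfe2 and Plagl2, were called lower and 0 were called higher. Over all genes tested 0.266% were called lower and 0.532% in either direction. The groups did not overlap for the same 2 genes, both lower, against 12.3% of all genes without overlap and lower and 29.7% in either direction. Nothing is read from these counts, since the genes were selected on this contrast. The other 7 tested genes had log2 fold changes from −0.15 to 0.19, 5 below 0 and 2 above 0. The median of the 9 was −0.09, beside 0.04 over all genes tested, of which 58.8% were above 0.

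**Figure D2:**
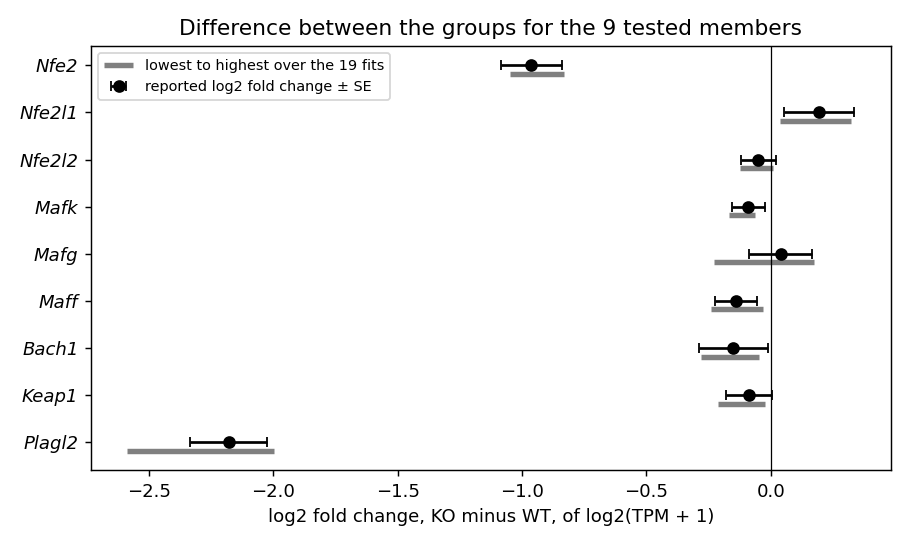
Log2 fold change, KO minus WT, of log2(TPM + 1) for the 9 genes tested (x axis), as a black point with its standard error. The grey bar runs from the lowest to the highest value over 19 fits, and stays between −1.05 and −0.83 for Nfe2 and between −2.59 and −2.00 for Plagl2.

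The order of levels changed at its lower end. In WT it ran Nfe2, Nfe2l2, Mafg, Mafk, Bach1, Nfe2l1, Plagl2, Keap1, Maff and Bach2, and the only neighbours in that order whose libraries overlapped were Nfe2l2 and Mafg. In the libraries labelled KO the first 6 kept their places, followed by Keap1, Maff, Plagl2 and Bach2, and no neighbours overlapped. Nfe2 came close to Nfe2l2 there, at 129.7 against 113 TPM, where WT had 255 against 117 TPM.

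Summed by role, the activator genes Nfe2, Nfe2l1 and Nfe2l2 reached 444, 356 and 378 TPM in WT and 254, 265 and 281 TPM in the libraries labelled KO. Without Nfe2 the same sum was 140, 132 and 141 TPM in WT and 131, 141 and 138 TPM in the libraries labelled KO, so outside Nfe2 the groups overlapped. Nfe2 made up 64.7 ± 3.21% of the activator transcripts in WT and 48.6 ± 1.97% in the libraries labelled KO (SD, n = 3 each). The small MAF transcripts summed to 153, 168 and 192 TPM in WT and 161, 168 and 174 TPM in the libraries labelled KO. These groups overlapped.

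The ratio of activator to small MAF transcripts was 2.89, 2.13 and 1.97 in WT and 1.57, 1.57 and 1.61 in the libraries labelled KO. Without Nfe2 it was 0.811 ± 0.0917 and 0.814 ± 0.0214 (SD, n = 3 each), and the groups overlapped. The ratio of Nfe2 to Bach1, an activator and a repressor subunit that share partners, was 5.81, 5.38 and 5.63 in WT and 2.51, 3.51 and 3.69 in the libraries labelled KO. The ratio of Nfe2l2 to its inhibitor Keap1 was 13.6 ± 1.0 and 14.1 ± 1.42, and that of Nfe2l2 to Bach1 was 2.61 ± 0.240 and 2.83 ± 0.535, less apart than their spread. Within the small MAFs, Mafg held 58.2 ± 4.01% in WT and 60.5 ± 1.25% in the libraries labelled KO. Sums and ratios that include Nfe2 carry the difference it was selected on and are no separate results. All are transcript values, and the proteins were not measured.

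**Figure D3:**
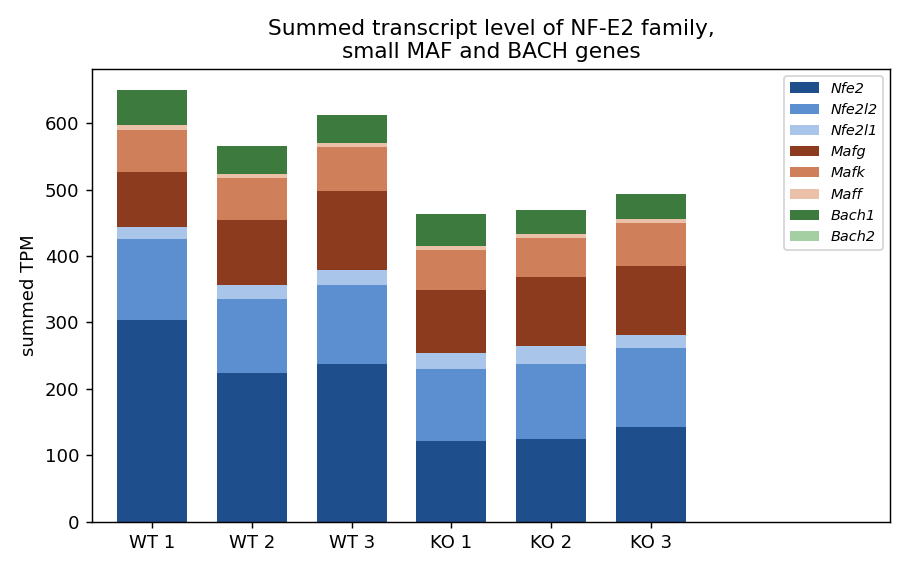
Summed TPM (y axis, starting at 0) of the activator genes (blue), small MAF genes (brown) and BACH genes (green) in each of the 6 libraries, stacked by gene. The dark blue Nfe2 segment is 225 to 304 TPM in WT and 122 to 143 TPM in the libraries labelled KO, while the segments above it differ little; Bach2 is too low to be seen.

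The protein-coding genes around Nfe2 and Plagl2 were compared in order to see whether a wider stretch of the chromosome moved with them. Within 100 kb of Nfe2, by the gap between gene bodies, 7 neighbours were tested and none was called, with log2 fold changes from −0.20 for Gpr84, a fatty acid receptor gene, to 0.19 for Zfp385a and adjusted p from 0.206 to 0.940 (limma). The nearest by that gap, Hnrnpa1, an RNA-binding protein gene, was 33.2, 27.5 and 26.7 TPM in WT and 32.0, 31.5 and 33.9 TPM in the libraries labelled KO. It overlapped between the groups, as did Cbx5, Copz1, Smug1 and Itga5, whereas Gpr84 was lower and Zfp385a higher in every library labelled KO.

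Near Plagl2, the neighbours Pofut1, Tm9sf4, Tspyl3 and Kif3b were tested and none of these 4 was called (limma, adjusted p from 0.102 to 0.817). Tm9sf4, Tspyl3 and Kif3b had log2 fold changes of 0.26, 0.06 and −0.11. Pofut1, a gene for a protein O-fucosyltransferase of the Notch pathway, starts 107 bases from the start of Plagl2 and runs the other way. It was 1.70, 2.88 and 2.12 TPM in WT and 3.30, 4.16 and 4.08 TPM in the libraries labelled KO, above every WT library in each, where Plagl2 was below. The log2 fold change of Pofut1 was 0.59 (SE 0.15, adjusted p = 0.102, limma), between 0.47 and 0.78 over the alternatives, and did not pass the test. The 2 genes do not overlap in the annotation, and 99.37% to 99.51% of reads were on the correct strand.

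**Figure D4:**
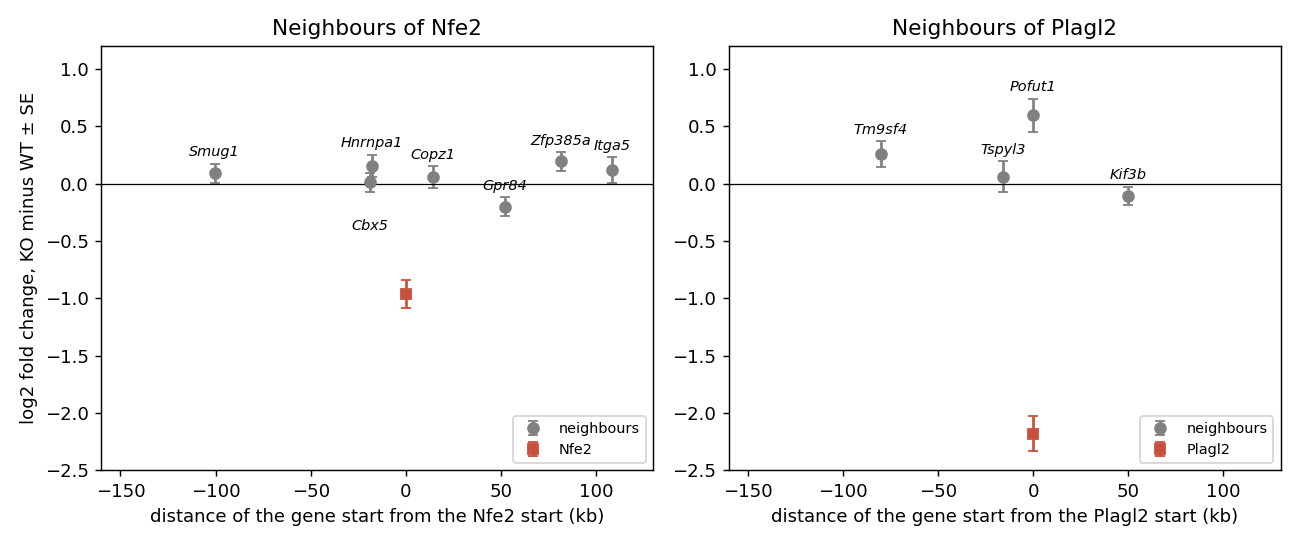
Log2 fold change, KO minus WT, with its standard error (y axis) against the distance between gene starts in kb (x axis) for Nfe2 (left) and Plagl2 (right), each in red at 0, and tested protein-coding neighbours in grey. The neighbours shown lie between −0.20 and 0.59, Pofut1 being the highest.

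The transcripts most like Nfe2 over the 6 libraries, by the root mean square difference of centred log2(TPM + 1), were Ighv3-6 (0.131), Mtmr6 (0.136) and Lyz2 (0.153). Mtmr6, a lipid phosphatase gene, was 143, 134 and 117 TPM in WT and 72.2, 72.3 and 73.3 TPM in the libraries labelled KO. Lyz2, the lysozyme gene that holds the Cre, was 25963 ± 1039 TPM in WT and 13792 ± 375 TPM in the libraries labelled KO (SD, n = 3 each). Ighv3-6, an immunoglobulin segment, was 2.16 ± 0.366 TPM in WT and 0.844 ± 0.336 TPM in the libraries labelled KO, an uncertain level because such segments share reads. Among the other members, Maff came nearest to Nfe2, at the 1459th place of all genes tested. Bach1 was at the 1796th and Plagl2 at the 8331st (0.647). For Plagl2 the nearest were Igkv16-104 (0.397), Nkiras2 (0.480), an inhibitor gene of NF-kappaB signaling, and Dcun1d3 (0.514), a gene of cullin neddylation, with Nfe2 at the 6th place (0.647). Nkiras2 was 39.3, 30.5 and 31.1 TPM in WT and 11.8, 11.7 and 15.0 TPM in the libraries labelled KO. Genes named for their likeness carry no test.

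The genes that these factors are known to control or to depend on were compared as 3 lists, none of which contains the 10 genes. The first list, partners and regulators of the network, also holds the PLAG family genes Plag1 and Plagl1, which were under the filter. In it 19 of 25 genes were tested and 0 passed (limma). Of the 19, 2 had an unadjusted p under 0.05 (10.5%, against 23.5% of all genes tested). The groups did not overlap for 7 of them (36.8%, against 29.7%), 5 higher and 2 lower in the libraries labelled KO. The most abundant were Sqstm1, whose product binds KEAP1, at 174 ± 33.2 TPM in WT and 185 ± 19.4 TPM in the libraries labelled KO, and Gsk3a, a kinase gene, at 92.4 ± 6.72 and 93.6 ± 3.94 TPM. Cul3, named after its values were seen, encodes the ubiquitin ligase scaffold on which KEAP1 acts and was 53.0 ± 9.69 TPM in WT and 43.3 ± 3.45 TPM in the libraries labelled KO (adjusted p = 0.271, limma). Nfe2l3, a further NF-E2 relative, and Nrl, a large MAF gene of the retina, were listed at 0 in every library. The median log2 fold change of 0.08 ran from −0.09 to 0.11 over the alternatives. Without WT replicate 3 the list had 1 call among 19 genes, Cul3. That fit called 1920 of all 9775 genes tested, 1180 higher and 740 lower. The WT libraries left in it had ribosomal shares of 1.2% and 1.3%, against 2.69% to 2.98% in the KO group.

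Of the antioxidant response genes, the targets associated with NRF2, 32 of 43 were tested and 0 passed (limma). The counts were 12 at an unadjusted p under 0.05 (37.5%, against 23.5%), 8 higher and 4 lower, and 14 without overlap (43.8%, against 29.7%), 9 higher and 5 lower. Fth1, the ferritin heavy chain gene, was the most abundant at 2734 ± 87.0 TPM in WT and 2600 ± 66.6 TPM in the libraries labelled KO, followed by Taldo1, a gene of the pentose phosphate pathway, at 1546 ± 97.9 and 1592 ± 23.7 TPM. The following were named after their values were seen, as the smallest p of the list and as classical NRF2 targets. Gclm, the modifier subunit gene of glutathione synthesis, whose promoter holds the same core as the genes above, was 6.48, 7.41 and 7.25 TPM in WT and 4.49, 6.02 and 4.35 TPM in the libraries labelled KO (log2 fold change −0.44, SE 0.12, adjusted p = 0.118, limma). Its catalytic partner Gclc was 1.38 ± 0.137 TPM in WT and 1.56 ± 0.227 TPM in the libraries labelled KO. Every library labelled KO was below every WT library for Gclm, while Gclc overlapped.
Gclm: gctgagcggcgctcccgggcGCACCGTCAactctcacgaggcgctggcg
This stretch is chr3:122245403-122245451 on the plus strand (RefSeq, GRCm38.p6), with the core 134 bases before the start and on the opposite strand. Over the list, 15 of 47 promoter stretches (31.9%) held the core. It also lay before a start of Txnrd1, Blvra, Abcc4, Prdx1 and Ugdh, with log2 fold changes of 0.28, 0.24, 0.21, 0.04 and 0.02. For G6pdx and Mgst1, which had it as well, the values were −0.13 and −0.03. Genes with the core thus went in both directions.

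Nqo1, the quinone reductase gene, was 6.27 ± 0.457 TPM in WT and 7.88 ± 0.913 TPM in the libraries labelled KO, and Hmox1, the heme oxygenase gene, was 56.7 ± 6.23 and 56.1 ± 2.64 TPM. Txnrd1, thioredoxin reductase, was 23.2, 24.4 and 26.5 TPM in WT and 28.7, 29.6 and 32.3 TPM in the libraries labelled KO, without overlap and in the direction opposite to Gclm (log2 fold change 0.28, SE 0.082, adjusted p = 0.132, limma). The median of the list was 0.12, between 0.0094 and 0.15 over the alternatives. Without WT replicate 3 the list had 3 calls among 32 genes (against 1920 of all 9775), Txnrd1, Abcc5 and Gstp1, all higher.

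Proteasome genes, which NRF1 is known to raise when proteasomes fail, were all tested, 32 of 32, and 0 passed (limma), with 6 at an unadjusted p under 0.05 (18.8%, against 23.5%). Their summed level was 1906 to 1923 TPM in WT and 2010 to 2053 TPM in the libraries labelled KO, and 15 did not overlap (46.9%, against 29.7%), 11 higher and 4 lower. The most abundant were Psmb3, at 150 ± 20.5 and 177 ± 1.87 TPM, and Psma6, at 145 ± 8.90 and 161 ± 5.89 TPM. The median log2 fold change of 0.06 ran from −0.0095 to 0.089 over the alternatives. Without WT replicate 3 there were 3 calls among 32 genes (against 1920 of all 9775), Psmb4, Psmd12 and Psmb3, 2 higher and 1 lower.

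Genes of platelets and erythroid cells, in which NF-E2 is best known, were mostly at low levels in these cells. Of 20 megakaryocyte and platelet genes 7 passed the filter and 0 were called (limma), with 5 at an unadjusted p under 0.05 (71.4%, against 23.5% of all genes tested) and 4 without overlap (57.1%, against 29.7%), all higher in the libraries labelled KO. Their sum of 517 to 612 TPM in WT and 632 to 725 TPM in the libraries labelled KO was mostly Thbs1, the thrombospondin gene, at 484, 472 and 558 TPM in WT and 575, 617 and 666 TPM in the libraries labelled KO (log2 fold change 0.30, SE 0.088, adjusted p = 0.133, limma). Itgb3, the integrin beta 3 gene, was 25.0 ± 2.51 and 30.2 ± 1.05 TPM. The groups were apart for both, in the direction opposite to Nfe2. Without WT replicate 3 the list had 4 calls among 7 genes (against 1920 of all 9775), Itgb3, Tbxas1, Gp9 and Thbs1, all higher. Of 22 erythroid genes 8 were tested and 0 called, with 2 at an unadjusted p under 0.05 (25%, against 23.5%), 1 in each direction, and their sum overlapped at 103 to 119 TPM in WT and 108 to 116 TPM in the libraries labelled KO. Hbb-bs, a beta globin gene, was 34.5 ± 3.04 and 32.4 ± 4.37 TPM, and Ppox, of heme synthesis, 26.1 ± 4.01 and 32.5 ± 1.29 TPM.

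Markers of other cells that the preparation could hold were compared as lists, and none was at 0 in every library. The B cell genes, whose lineage uses Bach2, summed to 15.7 to 18.3 TPM in WT and 16.5 to 17.3 TPM in the libraries labelled KO, with Cd79b and Cd79a highest and 0 of 6 called (limma, 0 at an unadjusted p under 0.05). The monocyte and macrophage genes, led by Cd68 and Csf1r, summed to 118 to 134 and 127 to 146 TPM, with 0 of 10 called and 4 at an unadjusted p under 0.05 (40%, against 23.5%), all higher. The T and NK cell genes summed to 11.8 to 13.6 and 16.0 to 17.6 TPM, most of it Cd3d (10.1 and 13.9 TPM, adjusted p = 0.0651, limma), and Nkg7 was near 1 TPM. Only these 2 of 10 were tested, with 0 called and 1 at an unadjusted p under 0.05 (50%, against 23.5%). The other 8 were each under 1 TPM. In the libraries labelled KO, the means of Cd3e, Cd3g, Cd8a, Cd8b1, Klrb1c and Lck were lower and those of Cd4 and Ncr1 higher. Of the basophil, mast cell and eosinophil genes, 1 of 4 was called: Prg2, the eosinophil major basic protein gene, was 0.850, 1.16 and 1.05 TPM in WT and 2.91, 2.33 and 3.13 TPM in the libraries labelled KO (log2 fold change 0.91, SE 0.11, adjusted p = 0.0341, limma). That call held in 9 of the alternatives and was lost in 8, among them those without WT replicate 1, WT replicate 2, KO replicate 1 or KO replicate 3 (log2 fold changes 0.84 to 0.95). The list summed to 632 to 805 TPM in WT and 581 to 621 TPM, mostly Hdc, with Siglecf at 8.27 and 8.47 TPM.

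Genes of immature neutrophils, such as Camp at 13813 and 17620 TPM and Ngp at 36517 and 33162 TPM, were tested in 16 of 16 cases with 0 called and 8 at an unadjusted p under 0.05 (50%, against 23.5%), all higher in the libraries labelled KO. Genes of mature neutrophils, such as Retnlg at 20804 and 20446 TPM and Mmp9 at 4195 and 3863 TPM, had 0 of 18 called and 7 at an unadjusted p under 0.05 (38.9%, against 23.5%), all lower. The median log2 fold changes were 0.21 and −0.13. Without WT replicate 3, 2 of the 16 immature genes were called, both higher, and 6 of the 18 mature genes, 1 higher and 5 lower. That fit called 1920 of all 9775 genes tested. The 16 rows of general neutrophil genes, some of which the immature and mature lists share, had 0 called and 4 at an unadjusted p under 0.05 (25%, against 23.5%), 3 higher and 1 lower, with a sum that overlapped between the groups. Leaving out WT replicate 3 also gave calls in 4 further lists: 5 of the general neutrophil genes (3 higher and 2 lower), 3 monocyte and macrophage genes, Cd3d and Ppox (all higher). The part of cell maturity and of other cells in the level of Nfe2 or Plagl2 was not tested.

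**Figure D5:**
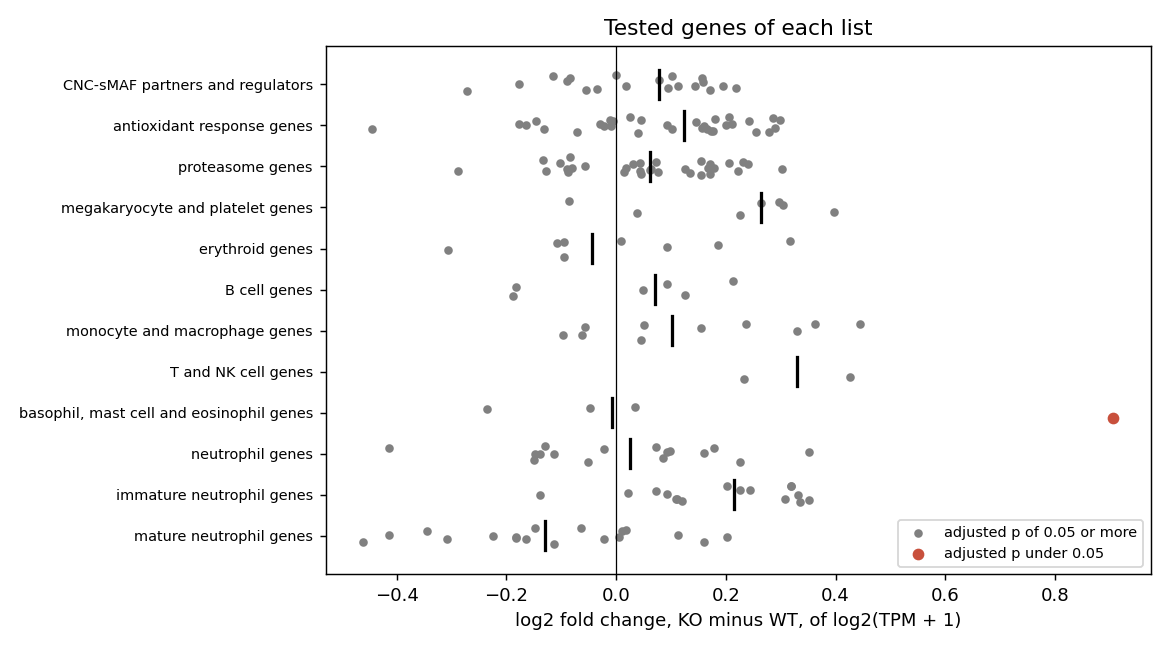
Log2 fold change, KO minus WT, of log2(TPM + 1) (x axis) of every tested gene in the 12 lists (rows), each point a gene shifted vertically at random within its row and each black bar the list median. Prg2, in red, is the only point with an adjusted p under 0.05, and the other points lie between −0.46 and 0.44.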

How the data were processed

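The authors aligned reads to mouse mm9 and name the DESeq2 pipeline; they deposited TPM, and a read summary with counts of reads, shares in percent, end bias as a ratio and coverage variation as a score. The tool that made the TPM is not given in the sources used here. The labels name a Percoll gradient and an mRNA kit, while the methods name CD11b and Ly6G sorting, single-end reads and a stranded kit for total RNA. The read summary lists a read length of 94 and a median insert size of 193 to 204, and no header in it names pairs.

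Since TPM holds no counts, no count model was run. Genes whose mean reached 1 TPM were compared on log2(TPM + 1), 3 libraries against 3, by limma 3.58.1 in R 4.3.3 (trend of variance on level, p-values adjusted by Benjamini-Hochberg), and the fit was tested on simulated data. The precision comes only from the spread between libraries, as TPM keeps no depth. The members and lists were chosen with earlier results of these data known. Named were all members, Lrp5 and Lyz2, of each list the called genes and the 2 of highest level, neighbours within 100 kb of Nfe2 or Plagl2 (1 of them is not reported here), and the 3 genes most like each. Coordinates are of NCBIM37 and promoter stretches of RefSeq on GRCm38.p6, matched by symbol for 8 of 10 members. The 18 alternatives covered pseudocount, filter, scaling, shrinkage, covariates, GC and length, and left-out libraries.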

Additional observations from a re-analysis of the deposited data

How the results depend on the processing

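The calls depended on the processing more than the differences did. Nfe2 was lower in the libraries labelled KO in all 19 fits and called in 11, and Plagl2 was lower in all 19 and called in 17, counts that describe the values the genes were selected on and support nothing. Over all genes, 52 were called as reported. The count was 3 without a filter on low values, 29 with a mean of at least 5 TPM, 83 after median-ratio scaling, 99 after rescaling without mitochondrial genes and the 20 most abundant, 6 with the ribosomal share as a covariate, 146 with GC and length trends removed and 6 against WT replicate 3 alone. Calls in the libraries labelled KO were higher for 26 of 52 as reported, 30 of 83 (36.1%) after median-ratio scaling and 72 of 99 (72.7%) after that rescaling. Of the 10 members, 2 were called as reported, 0 without a filter, 1 with the ribosomal covariate and 0 against WT replicate 3 alone. Of the list genes, 1 was called as reported, 0 without a filter, 0 with a mean of at least 5 TPM, 3 after median-ratio scaling, 2 after quantile normalization, 2 after the rescaling, 0 with the covariate, 4 with the trends removed and 0 against WT replicate 3 alone. Leaving out each library in turn gave 2 to 1920 called genes, 1 to 2 called members and 0 to 27 called list genes. The highest counts came without WT replicate 3, and the lowest count of genes without KO replicate 1 or KO replicate 3. Nfe2 was called without WT replicate 1 or WT replicate 3, and not without WT replicate 2 or any of the 3 KO replicates.

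With the replicate number as a block 4 genes, 1 member (Plagl2) and 0 list genes were called. The deviations of same-numbered libraries correlated at 0.229, −0.00750 and 0.131 for replicates 1 to 3. WT replicates 1 and 3 each correlated best with the KO library of the same number, and WT replicate 2 with KO replicate 3, at 0.0216. With 3 libraries in a group, whether libraries of the same number belong together cannot be decided.

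Of the values of single members under the alternatives, 153 moved by less than the spread between replicates and 9 by more, among them Mafg against WT replicate 3 alone (−0.23). The 153 include values that could not move: changes of filter or shrinkage and the replicate block leave a log2 fold change as it is. For named genes outside the members, 38 values of called genes fell short of the threshold in the same direction, 10 passed it that had not, and 48 changed sign, all of genes that were not called as reported. The changed log2 fold changes were as follows. With the ribosomal covariate Sqstm1 had −0.10, Gsk3a −0.062, Taldo1 −0.017, Cd79b −0.015, Cd68 −0.0042, Siglecf −0.030, S100a8 0.070, Itga5 −0.015, Copz1 −0.074 and Tspyl3 −0.13. Against WT replicate 3 alone Sqstm1 had −0.20, Gsk3a −0.095, Taldo1 −0.046, Cd79b −0.090, Cd68 −0.014, Csf1r −0.057, Nkg7 −0.075, Siglecf −0.046, S100a8 0.16, Itga5 −0.068, Copz1 −0.13 and Tspyl3 −0.21. After median-ratio scaling Gsk3a had −0.053, Taldo1 −0.028, Cd68 −0.027, Siglecf −0.032, Cbx5 −0.039 and Copz1 −0.014. With GC and length trends removed Gsk3a had −0.089, Taldo1 −0.033 and Cd68 −0.023. After quantile normalization Siglecf had −0.0064, Retnlg 0.26, Cbx5 −0.083, Smug1 −0.0071 and Tspyl3 −0.027. With libraries left out in turn, Sqstm1 ran from −0.00097 to 0.25, Gsk3a from −0.023 to 0.076, Taldo1 from −0.0012 to 0.090, Hbb-bs from −0.18 to 0.011, Cd68 from −0.016 to 0.11, Siglecf from −0.043 to 0.074, Retnlg from −0.072 to 0.047, Cbx5 from −0.040 to 0.055, Copz1 from −0.020 to 0.15 and Tspyl3 from −0.056 to 0.19. The cause of these changes was not tested. Depth of single genes is unknown in TPM, and 3 libraries against 3 cannot give an exact permutation p below 0.1.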
